A study of Rattus norvegicus with 36 samples.

Results

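The 36 genes described here encode proteins of hepatic stellate cells and of the extracellular matrix of the liver. They comprise fibrillar and other collagens, small proteoglycans, enzymes that crosslink or degrade matrix and their inhibitors, growth factors with their receptors, cytoskeletal proteins and genes of quiescent stellate cells. They were taken from a list of gene symbols chosen with earlier results of these data known, so shares set beside their counts are descriptive. Each was measured by the probe set annotated with that symbol alone that had the highest mean over all arrays. All 36 were found, among 31042 probe sets tested and 14217 genes named by a single symbol.

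The study asked how liver gene expression responds to decaBDE (decabromodiphenyl oxide), a brominated flame retardant. Male Harlan Sprague Dawley rats, 7 weeks old at the start, received decaBDE in corn oil by oral gavage, 5 ml per kg body weight, on 5 consecutive days. RNA of the left liver lobe, taken 1 day after the last dose, was hybridised to Affymetrix 3' expression arrays. The 6 groups of 6 arrays were vehicle (corn oil with no decaBDE) and daily doses of 0.1 mg/kg, 0.959 mg/kg, 9.59 mg/kg, 95.9 mg/kg and 959 mg/kg, so every group, vehicle included, had received corn oil. All values are log2 signals normalised by the authors with robust multi-array averaging (RMA). The labels do not state that each array came from a separate rat, so p-values measure the spread between these arrays, which may be partly technical.

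Hepatic stellate cells lie between the hepatocytes and the sinusoidal endothelium, where they store vitamin A in lipid droplets. After injury they can turn into contractile cells that resemble myofibroblasts, under the influence of transforming growth factor beta and platelet-derived growth factor, and then secrete fibrillar collagens, proteoglycans and inhibitors of matrix metalloproteinases. Portal fibroblasts, vascular smooth muscle and the mesothelium of the liver capsule express many of the same matrix genes.

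The tissue showed the markers of stellate cells. Of 16 listed stellate markers 15 were measured, and 14 of these lay above 5.16, the median level of all probe sets. Among them were Lrat, which esterifies retinol for storage, and Reln, a secreted glycoprotein. Ngfr, a nerve growth factor receptor found on stellate cells, had a mean of 3.31 and lay below that median. Of the 36 genes, 33 had a mean at or above the median level, and Tgfb1, Ngfr and Thy1 lay under it. These genes also varied more between arrays of the same group than most: the median within-group SD was 0.256 for the 36 genes and 0.141 for all probe sets.

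No gene of the 36 passed an adjusted p of 0.05 (limma, Benjamini-Hochberg over all 31042 probe sets) in any comparison of a dose with vehicle. In the same comparisons, from the lowest dose to the highest, 0, 0.029, 0.116, 0.0902 and 0.11% of all probe sets passed. A fit without variance moderation also gave 0 members at each dose. At an unadjusted p under 0.05, 18 of the 36 genes were higher and 0 lower at 95.9 mg/kg, where 3.53% of all probe sets were higher and 3.49% lower at that level. The counts of higher genes were 3 at 959 mg/kg (3.55% of all probe sets), 5 at 9.59 mg/kg (4.66%), and 0 at both 0.959 mg/kg (3.12%) and 0.1 mg/kg (2.22%). At these 4 doses 0 of the 36 genes were lower, against 2.53% of all probe sets at 959 mg/kg, 3.95% at 9.59 mg/kg, 2.95% at 0.959 mg/kg and 1.56% at 0.1 mg/kg. Some of these counts moved when 1 array was left out. At 959 mg/kg the count was 1, Timp1, without vehicle replicate 2, vehicle replicate 4 or 959 mg/kg replicate 5, and at 95.9 mg/kg it ran from 14 to 22. At 9.59 mg/kg it was 10 without vehicle replicate 2, 9 without vehicle replicate 1 or 9.59 mg/kg replicate 4, and 8 without 959 mg/kg replicate 5. It was 3 there without vehicle replicate 5 or 9.59 mg/kg replicate 3, and 2 without 9.59 mg/kg replicate 6. At 0.959 mg/kg it was 2 without vehicle replicate 1, and 1 without 0.959 mg/kg replicate 1 or 959 mg/kg replicate 5. At 0.1 mg/kg it was 2 without 0.1 mg/kg replicate 2, and 1 without vehicle replicate 1, vehicle replicate 6, 0.1 mg/kg replicate 6 or 9.59 mg/kg replicate 6.

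In a straight line across dose rank 1 of the 36 genes, Timp1, passed the adjusted threshold, where 0.393% of all probe sets passed.

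The differences were mostly positive and largest at the second highest dose. The mean was higher than in vehicle for 23, 27, 31, 34 and 30 of the 36 genes from the lowest dose to the highest, where 53.2, 52, 50.1, 48.3 and 49.5% of all probe sets were higher. Median log2 differences of the 36 genes in that order of doses were 0.0442, 0.0803, 0.172, 0.277 and 0.1, against medians over all probe sets between -0.0037 and 0.0059. With 1 array left out, the medians ran from -0.00298 (without 0.1 mg/kg replicate 1) to 0.0792 (without vehicle replicate 1) at 0.1 mg/kg and from 0.0233 (without 0.959 mg/kg replicate 6) to 0.14 (without 0.959 mg/kg replicate 2) at 0.959 mg/kg. They ran from 0.12 to 0.206 at 9.59 mg/kg, from 0.264 to 0.325 at 95.9 mg/kg and from -0.0179 (without 959 mg/kg replicate 5) to 0.141 at 959 mg/kg. At 95.9 mg/kg, 20 of the 36 genes had at least 3 of 6 arrays above every vehicle array, which 10% of all probe sets did. In liver pieces of mixed cells, a change in the number of cells of a type and a change in RNA per cell cannot be told apart.

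**Figure D1:**
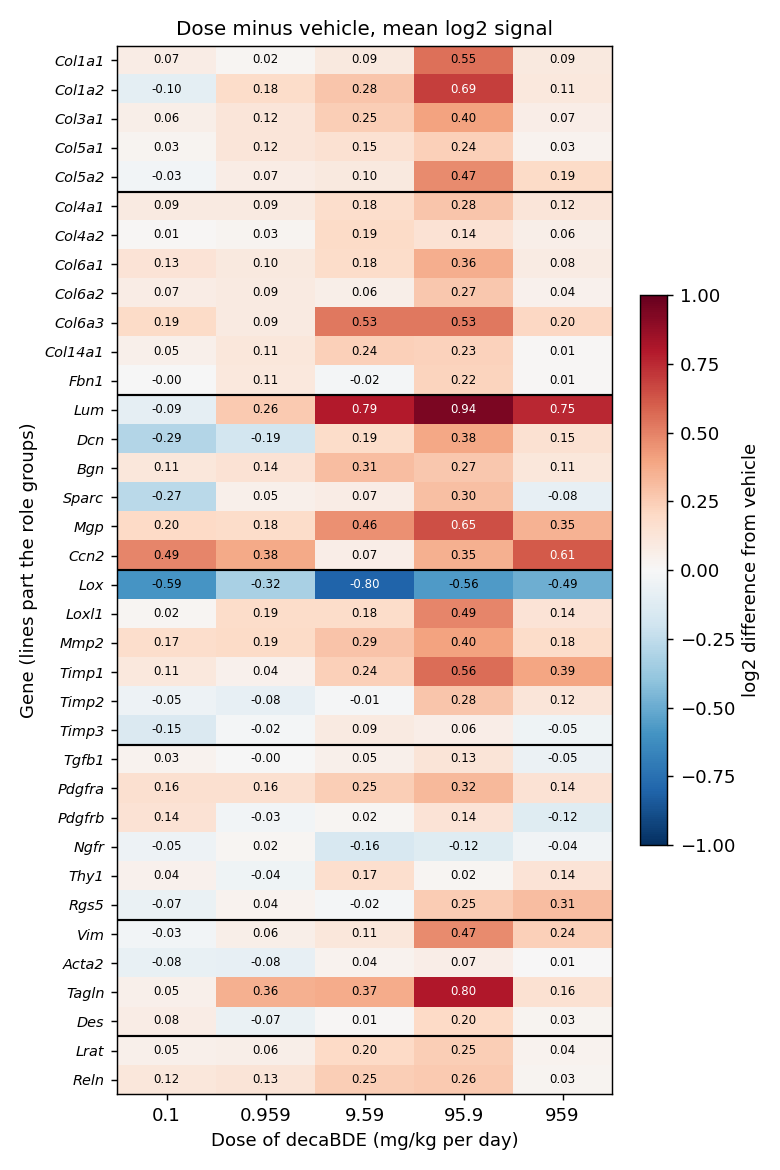
Log2 difference of each of the 36 genes (rows, grouped by role) between each dose and vehicle (columns, 0.1 to 959 mg/kg), as colour and number. Most cells of the 95.9 mg/kg column are positive, with a median of 0.277 over the 36 genes, against 0.1 in the 959 mg/kg column, and Lox is negative at every dose.

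Most of the 36 genes had lower means at the highest dose than at the one below it. Set against 95.9 mg/kg directly, 959 mg/kg had the higher mean for 5 of 36 genes, against 51.5% of all probe sets, and the median log2 difference (959 minus 95.9 mg/kg) was -0.21. At an unadjusted p under 0.05, 9 genes were lower at 959 than at 95.9 mg/kg, against 1.75% of all probe sets, and 0 were higher, against 3.02%. These 9 were Col1a1, Col1a2, Col3a1, Bgn, Sparc, Tgfb1, Pdgfrb, Tagln and Des. After adjustment 0 of the 36 passed, against 0.00644% of all probe sets (limma, smallest adjusted p = 0.977). The count of lower genes was 23 without 959 mg/kg replicate 5, against 2.32% of all probe sets in that fit, and it then held 8 of the 9 genes, with Tgfb1 lost. It was 5 without 95.9 mg/kg replicate 2, 95.9 mg/kg replicate 5 or 959 mg/kg replicate 1, 3 without 959 mg/kg replicate 2, and 2 without 95.9 mg/kg replicate 6 or 959 mg/kg replicate 3.

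Timp1 encodes a secreted inhibitor of matrix metalloproteinases that is known to increase in activated stellate cells. Its lowest, median and highest log2 signals were 6.63, 6.79 and 6.99 in vehicle, 6.55, 6.98 and 7.28 at 0.1 mg/kg and 6.59, 6.80 and 7.15 at 0.959 mg/kg. At 9.59 mg/kg they were 6.97, 7.07 and 7.10, at 95.9 mg/kg 7.10, 7.27 and 7.87 and at 959 mg/kg 6.77, 7.25 and 7.55. All 6 arrays of the 95.9 mg/kg group lay above every vehicle array, as did 5 of 6 at both 9.59 and 959 mg/kg. At 0.1 mg/kg 3 arrays lay above every vehicle array and 1 below, and at 0.959 mg/kg 2 above and 1 below.

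Across dose rank, from 0 for vehicle to 5 for 959 mg/kg, Timp1 rose by 0.10 per step (limma, SE 0.021, adjusted p = 0.012), or 0.50 over all 5 steps. Against vehicle the log2 difference was 0.56 at 95.9 mg/kg (95% interval 0.31 to 0.81, a 1.47-fold ratio, limma unadjusted p = 6.86e-05, adjusted p = 0.069). That difference passed with the replicate number as a block (adjusted p = 0.0292), with probe sets under the median level dropped (0.0446) and with the actin 3' to 5' difference as a covariate (0.0285). It also passed without vehicle replicate 1, 0.1 mg/kg replicate 1, 95.9 mg/kg replicate 3 or 959 mg/kg replicate 3, and over all arrays left out in turn its adjusted p (limma) ran from 0.0385 to 0.287. At 959 mg/kg it was 0.39 (interval 0.14 to 0.65, adjusted p = 0.43) and at 9.59 mg/kg 0.24 (interval -0.011 to 0.49). The line passed in each of 36 fits that left out 1 array, with adjusted p-values (limma) between 0.00315 and 0.0391. It did not pass with dose in mg/kg as it stands in place of its rank (adjusted p = 0.752), nor with the mean level of mesothelium markers as a covariate (slope 0.063, adjusted p = 0.249).

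Timp2 and Timp3 encode the inhibitors closest to Timp1 in function. Timp2 also takes part in activating the Mmp2 proenzyme, and Timp3 binds to the matrix. Timp2 had lowest, median and highest values of 7.80, 8.13 and 8.68 at 959 mg/kg and 8.10, 8.28 and 8.67 at 95.9 mg/kg, against 7.71, 7.97 and 8.35 in vehicle. These ranges overlap, with 2 of 6 arrays at 95.9 mg/kg above every vehicle array, and the log2 difference there was 0.28 (SE 0.13, limma adjusted p = 0.684).

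Timp3 differed from vehicle by less than its spread at every dose. Its values ran 6.26, 6.91 and 7.72 at 959 mg/kg and 6.90, 6.99 and 7.17 at 95.9 mg/kg, against 6.78, 6.89 and 7.16 in vehicle, with log2 differences of -0.046 and 0.065 (limma adjusted p = 0.987 and 0.969). At 959 mg/kg a single array, replicate 5, held the highest value, and the group reached below the vehicle group as well. Another of the 4 Timp3 probe sets, dimmer at a mean of 4.22, had a log2 difference of 0.391 at 95.9 mg/kg (limma adjusted p = 0.0951), so the probe sets of this gene disagree.

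**Figure D2:**
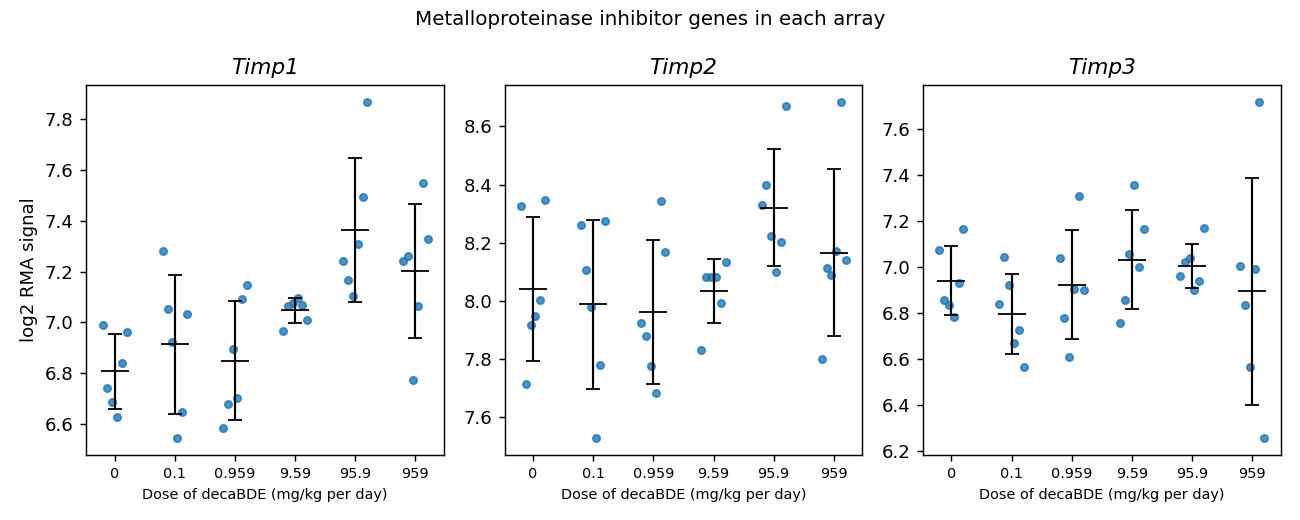
Log2 RMA signal of Timp1, Timp2 and Timp3 (panels) in each of the 36 arrays by daily dose in mg/kg, with 0 for vehicle. Points are arrays, and bars give the mean and SD of 6; for Timp1 all 6 arrays at 95.9 mg/kg lie at or above 7.10, and the highest vehicle array is at 6.99.

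The promoter windows of the 3 inhibitor genes are shown because Timp1 was the gene that passed a test and the others are its nearest relatives on the list. They come from RefSeq on the rat build GRCr8 and run from 250 bases before to 50 bases after the annotated gene start, 5' to 3' on the gene's strand. Timp1 lies at chrX:3771073-3771372 (minus strand), Timp2 at chr10:104089165-104089464 (minus strand) and Timp3 at chr7:19459509-19459808 (minus strand). Capitals mark matches, on either strand, to the TATA box (TATAAA), the CCAAT box, the GC box bound by Sp1 (GGGCGG), the AP-1 site (TGANTCA) or the core bound by the aryl hydrocarbon receptor (GCGTG), none of which overlap in these windows.
Timp1: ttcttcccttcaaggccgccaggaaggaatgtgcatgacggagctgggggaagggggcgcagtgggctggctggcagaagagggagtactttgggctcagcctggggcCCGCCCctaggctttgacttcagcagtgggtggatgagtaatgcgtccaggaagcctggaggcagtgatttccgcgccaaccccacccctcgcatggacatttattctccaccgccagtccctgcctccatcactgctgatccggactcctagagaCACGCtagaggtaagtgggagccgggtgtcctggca
Timp2: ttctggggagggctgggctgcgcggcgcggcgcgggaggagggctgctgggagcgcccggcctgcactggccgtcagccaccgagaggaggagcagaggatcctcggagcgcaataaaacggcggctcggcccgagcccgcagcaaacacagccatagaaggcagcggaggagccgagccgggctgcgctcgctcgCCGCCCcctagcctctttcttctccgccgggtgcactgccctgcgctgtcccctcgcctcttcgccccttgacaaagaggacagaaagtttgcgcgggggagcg
Timp3: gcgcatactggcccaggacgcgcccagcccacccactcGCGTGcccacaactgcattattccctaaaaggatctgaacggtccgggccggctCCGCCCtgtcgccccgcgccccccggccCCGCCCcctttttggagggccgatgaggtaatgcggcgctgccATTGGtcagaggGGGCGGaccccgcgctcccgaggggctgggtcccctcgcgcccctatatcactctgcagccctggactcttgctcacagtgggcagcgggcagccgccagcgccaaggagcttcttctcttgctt
The Timp1 window holds 1 GC box, which starts at position -142 from the gene start, and 1 GCGTG core. The Timp2 window holds 1 GC box. The Timp3 window holds 3 GC boxes, 1 CCAAT box and 1 GCGTG core. A match describes these letters and is not a shown binding site.

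Windows were at hand for 23 of the 36 genes. A GC box was present in 12 of these 23, against 34.9% of all 27457 rat promoter windows of the same length. The GCGTG core was in 9 of 23 (31.1% of all windows), CCAAT in 8 (37.7%), TATAAA in 3 (14.3%) and TGANTCA in 2 (7.33%). Col1a2, Ccn2 and Vim carried the TATAAA match, and Col6a1 and Pdgfra the TGANTCA match.

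The 5 fibrillar collagen genes, whose products form the tensile fibres that accumulate in scarred liver, all had an unadjusted p under 0.05 at 95.9 mg/kg. Their log2 differences there ran from 0.24 for Col5a1 to 0.69 for Col1a2, with a median of 0.47, and 0 passed after adjustment. At 959 mg/kg the median was 0.095, and at 9.59 mg/kg 0.15.

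Col1a1 encodes the alpha 1 chain of type I collagen, the main protein of scar fibres. Its lowest, median and highest values were 5.98, 6.25 and 7.39 at 959 mg/kg and 6.37, 6.75 and 7.46 at 95.9 mg/kg, against 5.86, 6.31 and 7.06 in vehicle. Of the 6 arrays at 95.9 mg/kg, 2 lay above the highest vehicle array, and the log2 difference of 0.55 had an interval of 0.17 to 0.94 (limma adjusted p = 0.455).

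Col1a2 encodes the alpha 2 chain of the same collagen. It averaged 8.25 ± 0.58 at 959 mg/kg and 8.84 ± 0.47 at 95.9 mg/kg, against 8.15 ± 0.42 in vehicle (SD, n = 6 each). At 95.9 mg/kg 4 of 6 arrays exceeded every vehicle array, and the log2 difference was 0.69 (SE 0.24, limma adjusted p = 0.474).

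Col3a1 encodes type III collagen, which forms the reticular fibres of the liver. Its values were 10.94, 11.04 and 11.77 at 959 mg/kg and 11.20, 11.56 and 11.87 at 95.9 mg/kg, against 10.86, 11.10 and 11.41 in vehicle. Again 4 of 6 arrays at 95.9 mg/kg lay above the vehicle range, while 5 of 6 at 959 mg/kg fell within it, and the log2 differences were 0.40 at 95.9 mg/kg and 0.069 at 959 mg/kg (limma adjusted p = 0.451 and 0.976).

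Col5a2 and Col5a1 encode chains of type V collagen, which helps type I fibrils to form. Col5a2 had values of 7.39, 7.44 and 8.12 at 959 mg/kg and 7.60, 7.78 and 8.26 at 95.9 mg/kg, against 7.12, 7.38 and 7.64 in vehicle. Its 95.9 mg/kg arrays began just under the highest vehicle array, 4 of 6 lay above it, and the log2 difference was 0.47 (SE 0.15, limma unadjusted p = 0.00336, adjusted p = 0.406). Col5a1 had a log2 difference of 0.24 at 95.9 mg/kg (SE 0.10), with 1 of 6 arrays above the vehicle range.

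The 7 genes of other collagens and microfibrils had higher means at 95.9 mg/kg in all 7 cases, with a median log2 difference of 0.27. Of these, Col4a1 and Col6a1 had an unadjusted p under 0.05. Col4a1, a chain of the basement membrane collagen, was together with Timp1 the only gene of the 36 with all 6 arrays at 95.9 mg/kg above every vehicle array, a pattern seen in 0.332% of all probe sets. Its values were 7.40, 7.43 and 7.69 at 95.9 mg/kg, against 7.04, 7.22 and 7.39 in vehicle, a log2 difference of 0.28 (SE 0.088, limma adjusted p = 0.406). The ranges do not overlap, but they nearly touch.

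Col4a2, the partner chain of Col4a1, had log2 differences of 0.06 at 959 mg/kg, 0.14 at 95.9 mg/kg and 0.19 at 9.59 mg/kg, with SDs of 0.23 at 95.9 mg/kg and 0.051 in vehicle. The 3 chains of type VI collagen, a beaded-filament collagen found around cells, had log2 differences at 95.9 mg/kg of 0.36 for Col6a1, 0.27 for Col6a2 and 0.53 for Col6a3. Of the 3 genes, Col6a3 varied most and reached a log2 difference of 0.53 at 9.59 mg/kg as well. The other Col6a3 probe set, with a mean level of 4.68, had the opposite sign, -0.09 at 95.9 mg/kg and -0.0834 at 9.59 mg/kg. Col14a1, a collagen of fibril surfaces, and Fbn1, the main protein of microfibrils, had log2 differences of 0.23 and 0.22 at 95.9 mg/kg and of 0.0094 and 0.012 at 959 mg/kg.

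Among 6 genes of small proteoglycans and matricellular proteins, all 6 had higher means at 95.9 mg/kg, and 2 of them, Bgn and Mgp, had an unadjusted p under 0.05. Bgn encodes biglycan, a small proteoglycan that binds collagen. Its lowest, median and highest values were 8.77, 8.87 and 9.03 in vehicle, 9.04, 9.20 and 9.30 at 9.59 mg/kg, 8.96, 9.18 and 9.28 at 95.9 mg/kg and 8.83, 8.95 and 9.25 at 959 mg/kg. All 6 arrays at 9.59 mg/kg, 5 at 95.9 mg/kg and 2 at 959 mg/kg lay above every vehicle array. Only Bgn showed full separation at 9.59 mg/kg, which 0.435% of all probe sets did.

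The log2 differences of Bgn were 0.31 at 9.59 mg/kg (SE 0.075, limma adjusted p = 0.107), 0.27 at 95.9 mg/kg (adjusted p = 0.225) and 0.11 at 959 mg/kg (adjusted p = 0.886). Over any dose, its F statistic of 4.74 was the next after that of Timp1 (6.25) among the 36 genes, with limma adjusted p-values of 0.33 and 0.125. In that test 7 of the 36 genes had an unadjusted p under 0.05, against 7.53% of all probe sets, and 0 passed after adjustment, against 0.135%. The 7 became 14 without 959 mg/kg replicate 5 (7.53% of all probe sets in that fit), 12 without vehicle replicate 1 and 11 without 0.959 mg/kg replicate 5. The count was 3 without 95.9 mg/kg replicate 2 and 2 without 95.9 mg/kg replicate 5 or 6.

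Lum, which encodes the collagen-binding proteoglycan lumican, had the largest positive log2 differences of the 36 genes at 9.59, 95.9 and 959 mg/kg, and a wide spread. Its difference of 0.75 at 959 mg/kg was 0.31 without replicate 5 of that group, below those of Ccn2 and Timp1. Its values were 5.56, 5.99 and 8.90 at 959 mg/kg and 5.79, 7.07 and 7.36 at 95.9 mg/kg, against 5.08, 5.97 and 6.82 in vehicle. The difference of 0.94 at 95.9 mg/kg had an interval of -0.14 to 2.02, which includes 0, and 4 of 6 arrays lay above the vehicle range. Dcn, encoding the related proteoglycan decorin, had log2 differences of 0.15 at 959 mg/kg and 0.38 at 95.9 mg/kg, each under its own within-group SD in those groups.

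Mgp encodes matrix Gla protein, an inhibitor of calcification. It averaged 8.75 ± 0.72 at 959 mg/kg and 9.05 ± 0.36 at 95.9 mg/kg, against 8.41 ± 0.36 in vehicle (SD, n = 6 each), a log2 difference of 0.65 at 95.9 mg/kg (limma adjusted p = 0.54). Sparc, a collagen-binding matricellular protein, had 5 of 6 arrays at 95.9 mg/kg above every vehicle array and a log2 difference of 0.30 (SE 0.18). One array at 0.1 mg/kg, replicate 6, stood far below all others at 9.05 and widens that error.

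Ccn2 encodes connective tissue growth factor, a matricellular target of transforming growth factor beta. It had the lowest unadjusted p at 959 mg/kg after Timp1. Its values were 5.16, 5.55 and 6.21 in vehicle, 5.36, 6.10 and 6.68 at 0.1 mg/kg, 5.36, 6.08 and 6.39 at 0.959 mg/kg, 4.94, 5.61 and 6.74 at 9.59 mg/kg, 5.44, 5.95 and 6.34 at 95.9 mg/kg and 5.53, 6.31 and 6.95 at 959 mg/kg. All of these ranges overlap that of vehicle, and the means do not follow the dose. The log2 difference at 959 mg/kg was 0.61 (interval 0.075 to 1.14, limma unadjusted p = 0.0267, adjusted p = 0.77), and at 0.1 mg/kg it was 0.49.

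Mmp2 encodes gelatinase A, a metalloproteinase that degrades basement membrane collagen. Its values were 6.21, 6.40 and 6.89 at 959 mg/kg and 6.51, 6.61 and 7.05 at 95.9 mg/kg, against 5.82, 6.36 and 6.61 in vehicle, and 3 of 6 arrays at 95.9 mg/kg lay above every vehicle array. The log2 difference there was 0.40 (SE 0.13, limma unadjusted p = 0.00289, adjusted p = 0.396). The other Mmp2 probe set, with a mean level of 4.21, had the opposite sign, -0.155, so the direction for this gene depends on the probe set.

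Lox and Loxl1 encode enzymes that crosslink collagen and elastin. Lox had the lower mean at every dose. Its values were 7.11, 7.71 and 8.38 at 959 mg/kg and 7.25, 7.64 and 7.87 at 95.9 mg/kg, against 7.12, 8.03 and 9.50 in vehicle. The vehicle arrays themselves fell apart, with replicates 1, 2 and 3 between 8.70 and 9.50 and the other 3 between 7.12 and 7.36, and the log2 differences of -0.49 and -0.56 had intervals that include 0. Loxl1 went the other way, with a log2 difference of 0.49 at 95.9 mg/kg (SE 0.18, limma adjusted p = 0.519) and 4 of 6 arrays above the vehicle range.

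Genes of growth factors, receptors and surface proteins, grouped with Rgs5, had smaller differences. Among them, Tgfb1, Ngfr and Thy1 had means under the median level of all probe sets. At 95.9 mg/kg the median log2 difference of these 6 genes was 0.13, and 1, Pdgfra, had an unadjusted p under 0.05. Tgfb1 encodes transforming growth factor beta 1, the ligand that drives collagen synthesis in stellate cells. It averaged 4.99 ± 0.10 at 959 mg/kg and 5.17 ± 0.19 at 95.9 mg/kg, against 5.04 ± 0.20 in vehicle (SD, n = 6 each), and its groups overlapped at every dose.

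Pdgfra and Pdgfrb encode the alpha and beta receptors for platelet-derived growth factor, the main mitogen of stellate cells. Pdgfra had values of 7.56, 7.72 and 7.97 at 959 mg/kg and 7.75, 7.85 and 8.18 at 95.9 mg/kg, against 7.33, 7.54 and 8.06 in vehicle. A single vehicle array, replicate 1 at 8.06, stood above the other vehicle arrays, the next of which was at 7.58, and the log2 difference at 95.9 mg/kg was 0.32 (limma unadjusted p = 0.00455, adjusted p = 0.445). Pdgfrb had log2 differences of 0.14 at 95.9 mg/kg and -0.12 at 959 mg/kg, with standard errors of 0.099 and 0.099.

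Rgs5, a regulator of G protein signalling found in pericytes and stellate cells, was 1 of the 3 genes with an unadjusted p under 0.05 at 959 mg/kg. Its values were 5.49, 5.84 and 6.14 at 959 mg/kg and 5.55, 5.76 and 5.93 at 95.9 mg/kg, against 5.23, 5.35 and 6.04 in vehicle. The lowest array at 959 mg/kg lay above 4 of the 6 vehicle arrays, and vehicle replicates 1 and 6 stood above the rest of their group. The log2 difference at 959 mg/kg was 0.31 (SE 0.14, limma adjusted p = 0.771), and 0.416 without vehicle replicate 1. Thy1, a surface protein of portal fibroblasts, had a log2 difference of 0.14 at 959 mg/kg with 4 of 6 arrays above the vehicle range, and of 0.016 at 95.9 mg/kg. Ngfr had log2 differences of -0.036 at 959 mg/kg and -0.12 at 95.9 mg/kg.

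The cytoskeletal genes divided. Vim, Tagln and Des had an unadjusted p under 0.05 at 95.9 mg/kg, and Acta2, the smooth muscle actin used to identify activated stellate cells, did not. Acta2 had values of 5.51, 5.81 and 5.97 in vehicle, 5.21, 5.67 and 6.32 at 0.1 mg/kg, 5.49, 5.76 and 5.84 at 0.959 mg/kg, 5.41, 5.68 and 6.32 at 9.59 mg/kg, 5.49, 5.84 and 6.21 at 95.9 mg/kg and 5.49, 5.77 and 6.16 at 959 mg/kg. The 6 groups overlap, although they differ in width, and the log2 differences were 0.0059 at 959 mg/kg (interval -0.30 to 0.31) and 0.067 at 95.9 mg/kg (interval -0.24 to 0.37).

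Vim encodes vimentin, an intermediate filament of mesenchymal cells. Its values were 8.37, 8.50 and 9.43 at 959 mg/kg and 8.55, 8.88 and 9.30 at 95.9 mg/kg, against 8.24, 8.46 and 8.65 in vehicle. At 95.9 mg/kg 5 of 6 arrays lay above the vehicle range, against 2 of 6 at 959 mg/kg, and the log2 differences were 0.47 and 0.24 (limma adjusted p = 0.451 and 0.885).

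Tagln encodes transgelin, an actin-binding protein of smooth muscle and myofibroblasts. It had the largest log2 difference at 95.9 mg/kg after Lum, 0.80 (interval 0.25 to 1.35, a 1.74-fold ratio, limma adjusted p = 0.451). Its values were 5.98, 6.39 and 7.33 at 959 mg/kg and 6.37, 6.97 and 8.30 at 95.9 mg/kg, against 5.88, 6.29 and 6.73 in vehicle. Although 4 of 6 arrays at 95.9 mg/kg exceeded the vehicle range, replicate 6 was far above the rest at 8.30.

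Des encodes desmin, the intermediate filament that marks stellate cells in rat liver. Its values were 5.30, 5.65 and 5.84 at 959 mg/kg and 5.65, 5.79 and 5.94 at 95.9 mg/kg, against 5.51, 5.60 and 5.66 in vehicle. Here 5 of 6 arrays at 95.9 mg/kg lay above the narrow vehicle range, while at 959 mg/kg 3 lay above and 2 below it. The log2 difference at 95.9 mg/kg was 0.20 (SE 0.076, limma adjusted p = 0.541) and at 959 mg/kg 0.028.

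The genes of quiescent stellate cells had positive differences at the same dose. Lrat, the vitamin A storage enzyme that stellate cells lose on activation, had values of 8.14, 8.46 and 8.82 at 959 mg/kg and 8.55, 8.65 and 8.77 at 95.9 mg/kg, against 8.14, 8.40 and 8.60 in vehicle. At 95.9 mg/kg all 6 arrays lay in the upper part of the vehicle range or above it, with a log2 difference of 0.25 (SE 0.12, limma adjusted p = 0.674). Reln had log2 differences of 0.26 at 95.9 mg/kg and 0.027 at 959 mg/kg. Over the 9 measured stellate markers outside the 36 genes, the mean level per array ran from 7.38 to 7.71 at 959 mg/kg and from 7.60 to 7.79 at 95.9 mg/kg, against 7.42 to 7.75 in vehicle.

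A single array carried much of what was seen at 959 mg/kg. Replicate 5 of that group had the highest value of its group for 27 of the 36 genes, against 15.1% of all probe sets. It lay above the group mean for 35. Other groups also held an array that led many of these genes. Replicate 1 at 0.1 mg/kg was highest for 21 (13.8% of all probe sets) and above its group mean for 34. The counts were 16 and 33 for replicate 6 at 0.959 mg/kg (16.2%), and 16 and 32 for vehicle replicate 1 (18.7%). Without 959 mg/kg replicate 5, 16 of 36 genes had the higher mean at 959 mg/kg in place of 30. The median log2 difference was then -0.018 in place of 0.10. The differences of Lum, Dcn and Mgp moved most, to 0.31, -0.23 and 0.09 without it, in place of 0.75, 0.15 and 0.35. Among the fibrillar collagens, Col1a1 was at 7.39 on that array, with the other 5 between 5.98 and 6.43, and its difference from vehicle without it was -0.10. Col1a2 was at 9.42 there, with the next array at 8.15, and its difference without it was -0.13.

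The genes that kept a positive difference at 959 mg/kg without replicate 5 included Timp1 at 0.33, Ccn2 at 0.46 and Rgs5 at 0.25 (limma, all with an adjusted p over 0.05). Of the 3, only Timp1 kept an unadjusted p under 0.05 (limma, 0.0136), while that of Ccn2 was 0.0941 and that of Rgs5 0.0898. A positive difference was kept by 1 of 5 fibrillar collagens, Col5a2, but with an unadjusted p of 0.565 (limma). It was also kept by 3 of 7 other collagens and by 1 of 4 cytoskeletal genes. The signs of 14 genes turned, and the differences of 35 of 36 became lower.

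**Figure D3:**
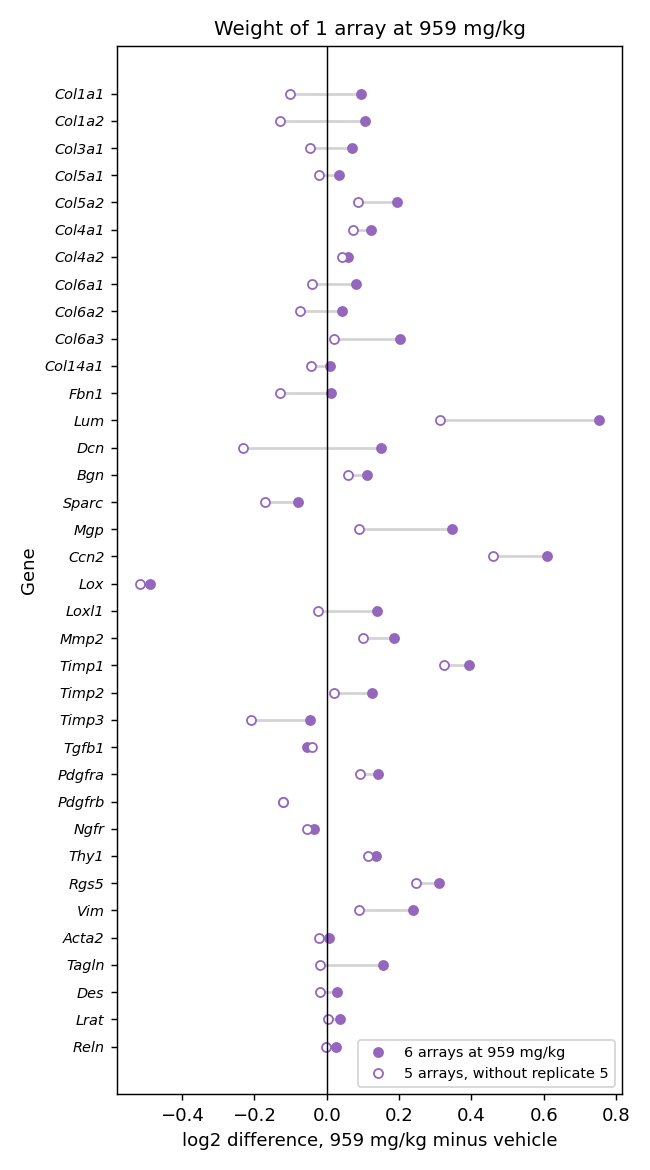
Log2 difference between 959 mg/kg and vehicle for each of the 36 genes, with all 6 arrays of that group and without its replicate 5. The median of the 36 genes is 0.10 with all arrays and -0.018 without that array.

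Markers of mesothelium, the cell layer that covers the liver, had the highest group mean at 959 mg/kg, close to that at 95.9 mg/kg. Of 8 listed, 7 were measured, 5 of them above the median level of all probe sets, with Wt1 and Upk1b below it. Their mean level per array ran from 6.34 to 6.95 in vehicle, 6.34 to 6.81 at 0.1 mg/kg and 6.45 to 7.01 at 0.959 mg/kg. It ran from 6.45 to 6.88 at 9.59 mg/kg, 6.47 to 7.28 at 95.9 mg/kg and 6.38 to 7.39 at 959 mg/kg. Replicate 5 at 959 mg/kg held the highest of the 36 array values, and replicate 6 at 95.9 mg/kg the next at 7.28. Replicate 4 at 959 mg/kg came after these at 7.095, although its mean of the 36 genes lay at -0.085 relative to all arrays. The group means of the markers were, from vehicle up, 6.55, 6.61, 6.662, 6.664, 6.82 and 6.87. Their SDs were 0.298 at 95.9 mg/kg and 0.355 at 959 mg/kg. Means of the 36 genes, relative to all arrays, rose from -0.1112 in vehicle through -0.0925, -0.0405 and 0.0385 to 0.203 at 95.9 mg/kg. At 959 mg/kg that mean was 0.0025. Apart from replicate 5, the marker level of the 959 mg/kg arrays ran from 6.384 to 7.095. None of the 7 passed at any dose (limma). At an unadjusted p under 0.05, 3 were higher at 959 mg/kg and 1 at 95.9 mg/kg, against 3.55% and 3.53% of all probe sets.

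Msln, which encodes the mesothelial surface protein mesothelin, averaged 6.62 ± 0.65 at 959 mg/kg and 6.55 ± 0.55 at 95.9 mg/kg, against 6.06 ± 0.38 in vehicle (SD, n = 6 each), with its highest value on replicate 5 at 959 mg/kg. Not every marker was like it: Lrrn4 averaged 7.30 ± 0.21 at 959 mg/kg and 7.35 ± 0.17 at 95.9 mg/kg, against 7.39 ± 0.26 in vehicle. The keratin gene Krt18, by far the brightest of these markers, is part of their mean. It averaged 10.86 ± 0.099 and 10.90 ± 0.068 at these doses, against 10.84 ± 0.09 in vehicle.

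With the mean mesothelium level as a covariate, chosen after the values were seen, the median log2 difference of the 36 genes was -0.047 at 959 mg/kg, 0.178 at 95.9 mg/kg and 0.084 at 9.59 mg/kg. The number of genes higher at 95.9 mg/kg with an unadjusted p under 0.05 was then 6, in place of 18, where 2.7% of all probe sets were higher in that fit, in place of 3.53%. At 959 mg/kg it was 0, in place of 3, with 3.11% of all probe sets, in place of 3.55%. The count of genes lower at 959 than at 95.9 mg/kg was 17, in place of 9, with 1.89% of all probe sets. The count of positive slopes was 2, in place of 11, with 3.49%. The group means of this covariate themselves rose from 6.55 in vehicle to 6.87 at 959 mg/kg. The fit therefore cannot tell a part of mesothelium from a part of dose, and the part of mesothelium was not tested.

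**Figure D4:**
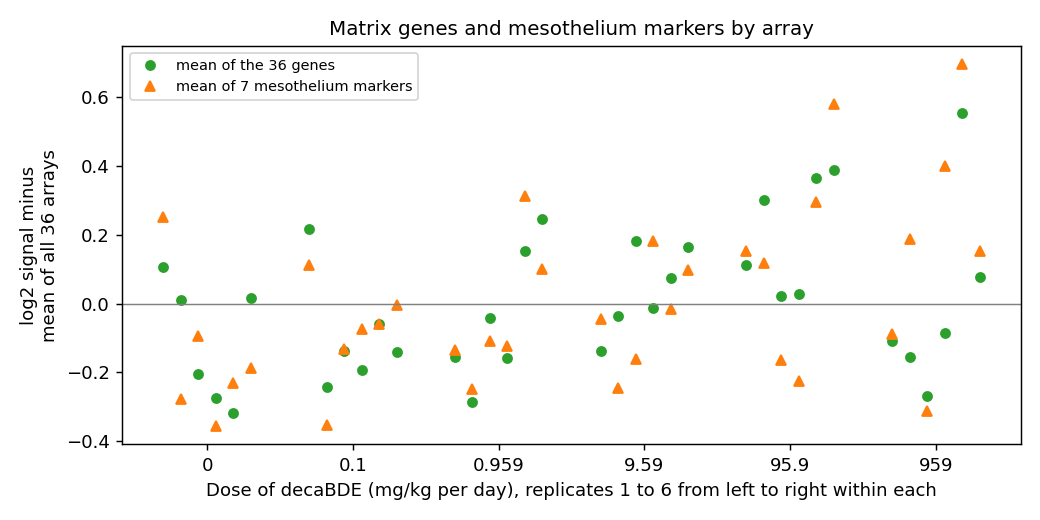
Mean log2 signal of the 36 genes and mean of 7 mesothelium markers in each array (vertical axis, relative to the mean of all 36 arrays), by daily dose in mg/kg with 0 for vehicle. Replicate 5 at 959 mg/kg is the highest array for both, at 0.554 for the 36 genes.

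The mean of 8 portal fibroblast markers outside the 36 genes ran from 5.56 to 5.99 at 959 mg/kg and from 5.76 to 5.88 at 95.9 mg/kg, against 5.64 to 5.91 in vehicle. The mean of 7 smooth muscle markers ran from 4.12 to 4.46, 4.11 to 4.36 and 4.09 to 4.46 in the same 3 groups. For both lists replicate 5 at 959 mg/kg ranked 2 of 36 arrays, while for the 9 stellate markers it ranked 24. It ranked 2 for the neutrophil markers as well, 5 for cholangiocyte markers and 6 for those of Kupffer cells and of liver endothelium. Among the smooth muscle markers, Cnn1, Actg2, Lmod1, Notch3, Synpo2 and Pln lay below 5.16, the median level of all probe sets. So did Gli1, Clec3b and Pi16 among the portal fibroblast markers, and S100a8, Camp and Csf3r among the neutrophil markers.

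Cholangiocytes line the bile ducts, and 6 of their 8 listed markers were measured, 4 of them above the median level of all probe sets. Their mean level per array ran from 5.33 to 6.34 at 959 mg/kg and from 5.78 to 6.35 at 95.9 mg/kg, against 5.41 to 6.00 in vehicle. The mean was higher than in vehicle for 5 of 6 at 959 mg/kg (median log2 difference 0.255, 3 with an unadjusted p under 0.05) and for 6 of 6 at 95.9 mg/kg (median 0.161, 1 at that level), and 3 of 6 had a positive slope at that level. Of all probe sets, 3.55% were higher at 959 mg/kg, 3.53% at 95.9 mg/kg and 4.66% had a positive slope at that level. None of the 6 passed after adjustment (limma). Krt19 stands in both this list and that of mesothelium.

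The 9 measured markers of Kupffer cells, the resident macrophages, had lower means than in vehicle at each of the 5 doses, with median log2 differences of -0.194 at 959 mg/kg and -0.148 at 95.9 mg/kg. Of the 9 liver endothelium markers 0 had a higher mean at 959 mg/kg and 3 did at 95.9 mg/kg, with medians of -0.0955 and -0.023. In both lists 0 genes had an unadjusted p under 0.05 at these 2 doses. At 0.959 mg/kg 7 of 9 Kupffer cell and 4 of 9 endothelium markers were lower at that level, against 2.95% of all probe sets. At 0.1 mg/kg 4 and 2 were, against 1.56%. None passed after adjustment at any dose (limma). The 3' to 5' difference of the actin control probe sets, a sign of RNA quality, averaged 1.14 ± 0.073 at 959 mg/kg and 1.17 ± 0.08 at 95.9 mg/kg, against 1.16 ± 0.05 in vehicle (SD, n = 6 each). The part of the mesothelium, fibroblast, muscle and cholangiocyte markers and of those of Kupffer cells and endothelium in the results was not tested.

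The rest of the pathway was counted in 4 further lists, in which 0 genes passed the adjusted threshold in any comparison (limma). Of 33 measured other matrix components, such as fibronectin and laminins, 10 were higher and 1 lower at 95.9 mg/kg at an unadjusted p under 0.05. Of all probe sets 3.53% were higher and 3.49% lower at that level. The median log2 difference of the 33 was 0.11. At 959 mg/kg 2 were higher and 1 lower, against 3.55% and 2.53% of all probe sets. By the smallest p over any dose, the 2 named genes are Ecm1, a secreted matrix protein of stellate cells, with log2 differences of 0.087 at 959 mg/kg and 0.19 at 95.9 mg/kg, and Lama4, a laminin chain, with 0.16 and 0.13.

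Of 11 measured collagen processing genes 4 were higher and 0 lower at 95.9 mg/kg at that level (3.53% and 3.49% of all probe sets). At 959 mg/kg 1 was higher and 0 lower (3.55% and 2.53%). Serpinh1, the collagen chaperone HSP47, had log2 differences of 0.19 at 959 mg/kg and 0.39 at 95.9 mg/kg (limma adjusted p = 0.886 and 0.438). Loxl2, a crosslinking enzyme related to Lox, had -0.12 and 0.52, opposite in sign at these doses.

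Of 16 measured proteases and their regulators 4 were higher and 0 lower at 95.9 mg/kg (3.53% and 3.49% of all probe sets). At 959 mg/kg 2 were higher and 0 lower (3.55% and 2.53%). Plat, the tissue plasminogen activator, had log2 differences of 0.18 at 959 mg/kg and 0.34 at 95.9 mg/kg, and Mmp12, a macrophage elastase, 0.21 and 0.24. In the pathways of transforming growth factor beta and platelet-derived growth factor, 2 of 19 measured genes were higher and 0 lower at 95.9 mg/kg. The counts were the same at 959 mg/kg, against the same shares of all probe sets at each dose. Smad2, a signal transducer, had log2 differences of -0.0035 at 959 mg/kg and 0.15 at 95.9 mg/kg, and Pdgfa, a ligand of Pdgfra, 0.20 and 0.20.

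Across dose rank, 11 of the 36 genes had a positive slope with an unadjusted p under 0.05 and 0 a negative one, against 4.66% and 4.05% of all probe sets. The 11 were Col1a2, Col5a2, Col4a1, Lum, Bgn, Mgp, Mmp2, Timp1, Timp2, Rgs5 and Vim. Without 959 mg/kg replicate 5 the count was 5 (Col5a2, Bgn, Timp1, Rgs5 and Vim), against 4.62% of all probe sets in that fit. It was 6 without vehicle replicate 3, 7 without vehicle replicate 5, 17 without 95.9 mg/kg replicate 3 and 18 without 959 mg/kg replicate 3. After Timp1, the smallest adjusted p-values (limma) were 0.275 for Rgs5, 0.3 for Vim and 0.333 for Col5a2, with slopes per step of 0.070, 0.079 and 0.071. Slopes of any size were positive for 33 of the 36 genes, against 46.9% of all probe sets.

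Other probe sets were present for 17 of the 36 genes, 20 probe sets in all. Their log2 difference had the sign of the brightest probe set in 14 of 20 at 959 mg/kg, 15 of 20 at 95.9 mg/kg and 13 of 20 at 9.59 mg/kg. None passed the adjusted threshold in those comparisons (limma).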

How the data were processed

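The authors deposited log2 RMA signals of 36 arrays, made with the affy package per the submitters' processing notes; its version is not given in the sources used here. Array medians ran from 5.12 to 5.21. Quantile normalisation holds arrays to 1 distribution, so differences are relative to the rest of the liver RNA, and the number of arrays limits the precision. The table lists 31099 probe sets, of which 57 are controls of the array and were not used. Symbols come from the platform annotation: 20826 probe sets have 1 symbol, 436 several and 9780 none. Groups and replicate numbers come from the sample titles.

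All 31042 probe sets were fitted with limma 3.58.1 in R 4.3.3, with a mean for each group and moderated variances (residual degrees of freedom 30, prior 5.12). Contrasts set each dose against vehicle, 959 against 95.9 mg/kg, any dose (F-test) and a line in dose rank; all are two-sided, with p-values adjusted across the whole table by the Benjamini-Hochberg method. The series' design text names maanova, which was not at hand. The script was tested on simulated data. Members, lists and the naming rule were chosen with earlier results of these data known. Values are given in full for members that passed, the 4 with the smallest p at 959 mg/kg, at 95.9 mg/kg, in the F-test and in the line, and 13 others; further pathway genes are named by the 2 smallest F-test p-values per list. Of 90 same-number pairs of arrays, 12 had deviations correlated over 0.1, with r from -0.239 to 0.375. Pairs with different numbers were not computed, so these values cannot show whether replicate numbers pair the arrays. Alternatives changed the normalisation, filter, moderation, trend, weights, block, arrays, probe set, dose scale or a covariate. Promoter windows are from RefSeq (GRCr8).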

Additional observations from a re-analysis of the deposited data

Results flagged for a closer look

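In 216 pairs of a gene and a dose group, 9 held 1 array that stood apart from the other 5 of its group (the gap to the nearest array divided by the group's range, above Dixon's 95% critical value for 6 values). Chance alone marks about 1 in 20 such groups. On replicate 5 at 959 mg/kg, Col1a1 at 7.39, Col1a2 at 9.42 and Fbn1 at 7.49 stood above the other arrays, whose nearest values were 6.43, 8.15 and 6.77. Sparc stood below its group on replicate 6 at 0.1 mg/kg, at 9.05 with the nearest array at 10.43. Pdgfra stood above on vehicle replicate 1, at 8.06 with the nearest at 7.58.

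Ngfr stood below on replicate 3 at 959 mg/kg, at 3.07 with the nearest array at 3.34, and above on vehicle replicate 4, at 3.63 with the nearest at 3.37. Thy1 stood above on replicate 3 at 95.9 mg/kg, at 4.41 with the nearest at 4.04. Vim stood below on replicate 5 at 0.1 mg/kg, at 8.01 with the nearest at 8.41.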

How the results depend on the processing

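The count of members past the threshold at 95.9 mg/kg was 1 (Timp1) in place of 0 when probe sets under the median level were dropped, with the actin 3' to 5' difference as a covariate, and with the replicate number as a block, where Timp1 had an adjusted p (limma) of 0.0292. With 1 array left out it ran from 0 to 1, and the count for any dose from 0 to 1. It was 1 without vehicle replicate 1, 0.1 mg/kg replicate 1, 95.9 mg/kg replicate 3 or 959 mg/kg replicate 3. For the line in dose rank it was 0, in place of 1, with dose in mg/kg as it stands and with the mesothelium covariate, which was chosen after seeing the data. The Timp1 difference at 95.9 mg/kg ran from 0.455 to 0.609 with 1 array left out. With the dose alternatives the cause was not tested. The median at 959 mg/kg ran from -0.0179 to 0.141 with 1 array left out, the lowest without its replicate 5. The replicate block changed no other call. The sign changes that follow were checked only for the genes whose values are given in full. Over all 36 genes, 14 signs turned at 959 mg/kg without its replicate 5. Signs turned with the second brightest probe set for Mmp2 (-0.0976 at 959 mg/kg, -0.155 at 95.9 mg/kg and -0.0141 for the line), the Timp2 line (-0.00202) and Pdgfrb at 95.9 mg/kg (-0.0468). Acta2 at 959 mg/kg was -0.0177 with array weights and -0.0165 with the actin covariate, which also gave -0.0049 for the Tgfb1 line. With 1 array left out, differences at 959 mg/kg changed sign within -0.103 to 0.243 for Col1a1, -0.0464 to 0.126 for Col3a1, -0.0178 to 0.252 for Tagln, -0.018 to 0.0903 for Des, -0.21 to 0.082 for Timp3, -0.0691 to 0.065 for Acta2 and -0.0391 to 0.0984 for Lrat. At 95.9 mg/kg they did within -0.0545 to 0.0505 for Thy1 and -0.00562 to 0.139 for Acta2, and for the line within -0.00882 to 0.0329 for Timp3 and -0.00614 to 0.00828 for Tgfb1. Fitting only the arrays of the 2 groups compared gave 13 probe sets past the threshold at 959 mg/kg in place of 34, 16 in place of 28 at 95.9 mg/kg, 19 in place of 36 at 9.59 mg/kg, 1 in place of 9 at 0.959 mg/kg and 1 in place of 2 for 959 against 95.9 mg/kg. The brightest probe set per gene gave 5 at 0.959 mg/kg. The mesothelium covariate gave 22 at 959 mg/kg, 18 at 95.9 mg/kg, 26 in place of 42 for any dose and 69 in place of 122 for the line, where dose in mg/kg gave 9. Members higher at 9.59 mg/kg with an unadjusted p under 0.05 were 8 with median-centred arrays, 9 with only the compared groups and 8 with the actin covariate, in place of 5, and at 0.1 mg/kg 1 with array weights or only the compared groups, in place of 0. Members with an unadjusted p under 0.05 were 4, in place of 7, for any dose with no variance moderation, and 2, in place of 11, for a positive slope with dose in mg/kg. Of the recomputed values 4683 were labelled unchanged, 79 moved, 32 reversed in sign, 8 newly past the threshold and 2 no longer past it. For named genes, unchanged meant the same sign and side of the threshold. Counts were labelled unchanged if they moved within a set ratio, and medians if they moved by less than the spread. The median of -0.0179 at 959 mg/kg without replicate 5, in place of 0.1, was among the unchanged.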
